A study of Arabidopsis thaliana with 12 samples.

Results

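In Arabidopsis thaliana, 40 of 692 genes named by a single array probe are described here, grouped by a measurement and not by a pathway: their signal was lower after 1 h of high light than before it. The samples were wild-type plants of the ecotype Columbia 0, with 6 samples grown at 80 µE and taken at 0 h, called normal light here, and 6 samples taken after 1 h at 1000 µE, called high light. All plants were wild type, no allele or agent is named, and the labels name neither tissue nor plant age. They do not say whether the samples within a group were separate plants, so the spread between samples may be technical. The design has no sample left at 80 µE for the same hour, so light and elapsed time cannot be told apart.

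The values are deposited array intensities on a linear scale, the brightness of a probe in an arbitrary unit. A gene was a member if its probe named a single gene, if its mean over the 12 samples was under 2, if it was above 0 in all 6 normal light samples, and if its high light mean was under 0.8 of its normal light mean without any scaling. Of 3439 probes, 692 named a single gene, 415 of these met the conditions on the mean and on zeros, and 46 of the 415 had a ratio under 0.8. Of the 46, 6 were set aside by name (GLDH, PSBY, AT1G64510, AT3G13120, AT1G29070 and AT4G02580), which left 40. The difference between the groups chose these genes, so it is described here and supports nothing, and no p-value of a member is given. In whole samples, fewer cells of a type and less RNA per cell cannot be told apart.

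Light beyond what photosynthesis can use is known to excite chlorophyll without an outlet and to load the chloroplast with reactive oxygen. Plants are known to answer within the hour by changing the transcripts of many nuclear genes, those of chloroplast proteins among them, and much of photosynthesis rests on such nuclear genes. Of the 40 members, 5 carry a gene symbol in the annotation. CBL is cystathionine beta-lyase, an enzyme of methionine synthesis, and TPP2 is tripeptidyl peptidase II, a large serine peptidase. PIFI is named after the increase in chlorophyll fluorescence after illumination and is known to act with the chloroplast NDH complex in the dark reduction of plastoquinone. UBA1A is an RNA-binding protein, and AILP1 is named without a role here. The other 35 carry only a locus code in the annotation used here, and no role is given to them, except that AT1G76450 stood on a list of PsbP and PsbP-like proteins, relatives of an extrinsic subunit of the oxygen-evolving photosystem.

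The 2 groups of arrays differed in their medians and zeros, and less in their means. Column means were 0.85 to 0.905 for normal light samples, against 1.01 to 1.06 for high light samples. Column medians were 0.115 to 0.130 for normal light samples, against 0.338 to 0.357 for high light samples, and 396 to 470 probes of a column stood at 0 in normal light against 167 to 209 in high light. On the log2 scale the median probe thus had a difference of 1.48, high light minus normal light, and the members were taken from the genes that went the other way. Samples 1 and 2, 3 and 4, and 5 and 6 of a group were the most alike. With values under 0.05 raised to 0.05, the log2 values of these pairs correlated at 0.942 to 0.971 across probes, those of other pairs of a group at 0.899 to 0.942, and those between groups at 0.748 to 0.774.

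The ratio of group means ran from 0.103 to 0.795 over the members, with a median of 0.662. It was under 0.5 for 7 members, from 0.5 to under 0.7 for 19 and 0.7 or more for 14. Over the 415 genes the rule could have taken, the median ratio was 2.02, and 313 of them had a ratio over 1.25. A ratio under 0.8 was found for 11.1% of the 415 and a ratio under 1 for 71 genes.

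**Figure D1:**
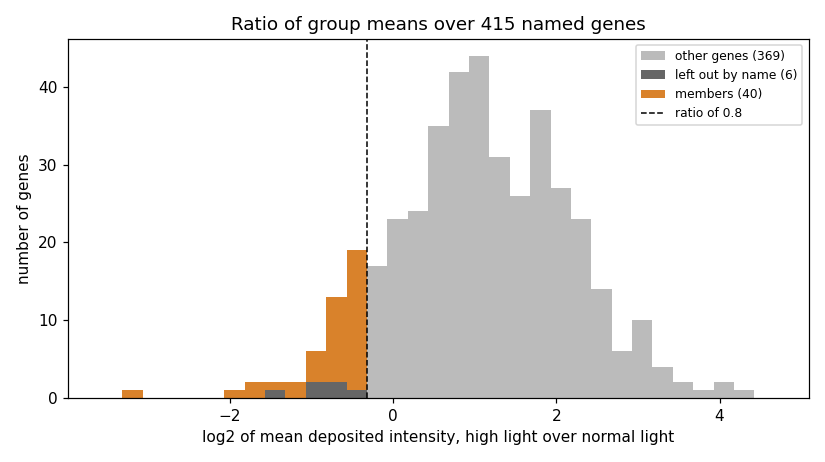
Distribution of the ratio of mean deposited intensities, high light over normal light, on a log2 axis, for the 415 named genes with a mean under 2 and no 0 in normal light; bars count genes. The 40 members and the 6 genes left out by name lie left of the dashed line at a ratio of 0.8, in the lower tail of a distribution whose median ratio was 2.02.

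Among the 28 members above 0 in all 12 samples, the lowest ratio was that of AILP1. Its lowest, median and highest intensities were 0.0755, 0.149 and 0.253 in normal light and 0.0147, 0.0396 and 0.0828 in high light, and the ratio of means was 0.281. The groups overlapped by 1 high light sample, number 5 at 0.0828, which lay above normal light sample 3 at 0.0755. AT1G76450, on the list of PsbP-like proteins, went from 0.199 ± 0.0707 to 0.0616 ± 0.0314 (mean ± SD, n = 6), a ratio of 0.3101. Its lowest, median and highest values were 0.0996, 0.208 and 0.273 in normal light and 0.0169, 0.0554 and 0.106 in high light, so that a single high light sample, number 6, reached into the normal light range. AT1G50000 had a ratio of 0.461, with 0.159, 0.248 and 0.338 in normal light and 0.06197, 0.111 and 0.194 in high light as lowest, median and highest values, and here too 5 of 6 high light samples lay below all normal light samples.

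AT4G05030 and AT5G59060 were the members with the lowest ratios whose groups did not overlap. AT4G05030 read 0.397, 0.317, 0.412, 0.369, 0.515 and 0.391 in normal light samples 1 to 6 and 0.202, 0.175, 0.177, 0.0577, 0.0778 and 0.0379 in high light samples 1 to 6, a ratio of 0.303 and a difference of -1.97 between mean log2 values. In high light its samples 4 to 6 were the low ones, while samples 1 to 3 stood close together. AT5G59060 read 0.756, 0.693, 0.724, 0.517, 0.644 and 0.386 in normal light and 0.225, 0.251, 0.241, 0.211, 0.243 and 0.18 in high light in the same order, a ratio of 0.363. Its high light samples lay within a narrow range, with an SD of 0.0264 around 0.225, and its normal light samples were wider, with an SD of 0.142 around 0.62.

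The groups of 9 members did not overlap, and for each of them every high light sample lay below every normal light sample. Over all 3439 probes, 3.98% were apart in this direction. The brightest of the 9 was AT2G37510, with 1.53, 1.77 and 1.99 in normal light and 0.7099, 1.12 and 1.46 in high light as lowest, median and highest values. AT3G51500 went from 1.12 ± 0.166 to 0.564 ± 0.0903 (SD, n = 6), the lowest ratio (0.502) among the members with a normal light mean over 1. AT4G30740 was the most even in high light, at 0.5396 to 0.626, while its normal light samples 5 and 6 stood at 1.21 and 1.295, above the other 4 at 0.807 to 0.895.

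AT1G28150, AT1G79220 and AT4G30680 had ratios of 0.694, 0.663 and 0.713 with little spread. The values of AT1G28150 ran from 0.761 to 1.096 in normal light, against 0.571 to 0.749 in high light. Those of AT1G79220 ran from 0.798 to 1.06 in normal light, against 0.536 to 0.714 in high light. In AT4G30680 the gap was small, from 0.633 in the highest high light sample to 0.651 in the lowest normal light sample, as it was in AT1G28150. AT1G32160 was apart as well, at 0.509 to 0.751 in normal light, against 0.08898 to 0.477 in high light, but its high light samples 1 and 2 (0.196 and 0.08898) lay well below its other 4 (0.338 to 0.477). The remaining 31 members overlapped to some degree. In 5 of them 5 high light samples lay below the lowest normal light sample, and in the others 4 or fewer did.

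**Figure D2:**
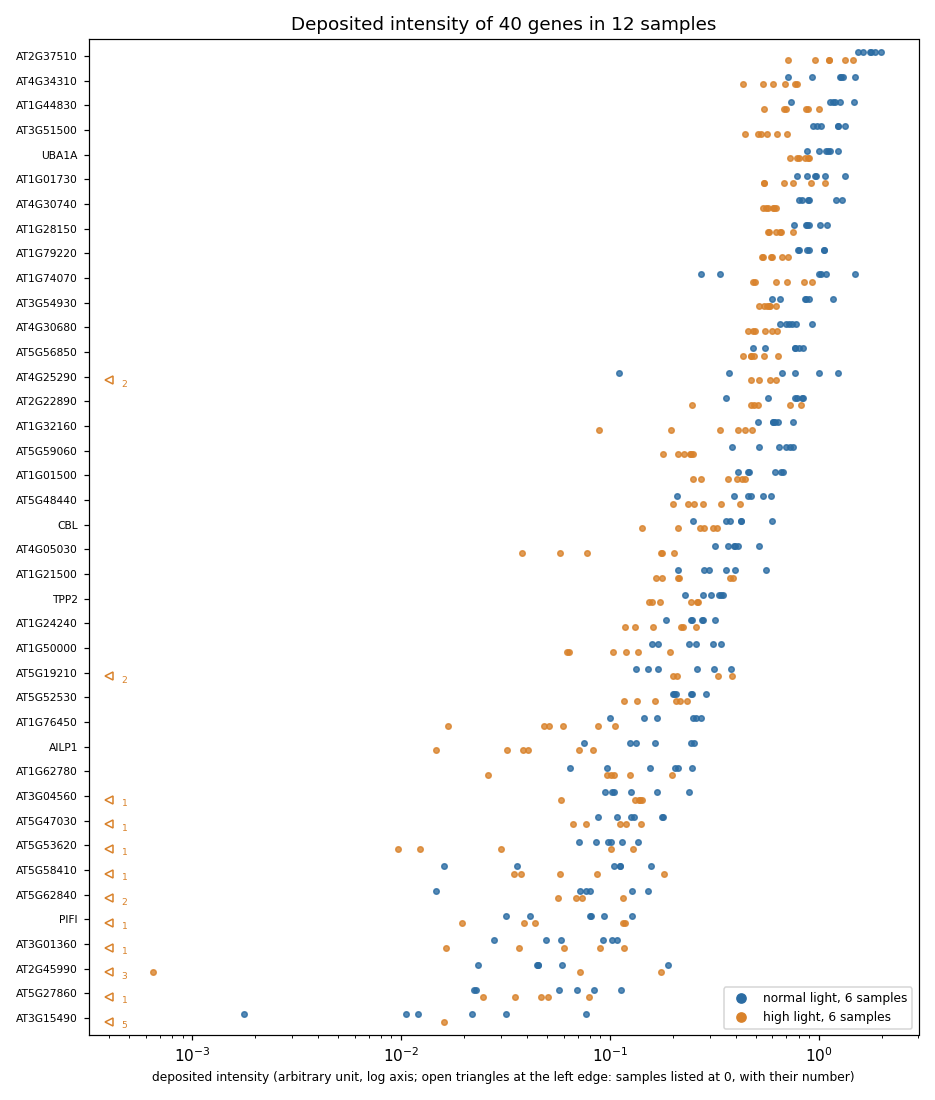
Deposited intensity (arbitrary unit, log axis) of each of the 40 members in the 6 normal light and 6 high light samples, 1 point per sample, ordered by normal light mean; open triangles with a number stand for samples listed at 0. The high light points lie to the left of the normal light points with no overlap for 9 members, and the zeros gather among the dim members.

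Of the members with a symbol, UBA1A and TPP2 varied least. UBA1A read 0.875, 1.099 and 1.24 in normal light and 0.731, 0.831 and 0.896 in high light as lowest, median and highest values, a ratio of 0.77, and only its normal light sample 6 reached the high light range. TPP2 read 0.229, 0.319 and 0.349 in normal light and 0.155, 0.2095 and 0.264 in high light, with a ratio of 0.685, and 3 of its high light samples (1, 2 and 6) lay below all normal light samples. CBL had 0.251, 0.398 and 0.594 in normal light and 0.142, 0.275 and 0.326 in high light and a ratio of 0.638, and its low normal light sample, number 3 at 0.251, lay within the high light range.

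PIFI was dim in both groups. It read 0.0799, 0.0815, 0.0318, 0.0938, 0.127 and 0.0413 in normal light and 0.118, 0.116, 0.0438, 0.0196, 0 and 0.0389 in high light samples 1 to 6. The means of 0.0759 and 0.056 gave a ratio of 0.738, but high light samples 1 and 2 were higher than 5 of the 6 normal light samples, and the group mean was lowered by sample 5 at 0 and sample 4 at 0.0196. The 2 groups thus overlapped over most of their range, and the ratio of PIFI rests on single samples.

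Members of high normal light intensity that overlapped between groups differed in how far they did so. AT3G54930 read 0.594, 0.864 and 1.17 in normal light and 0.516, 0.573 and 0.623 in high light as lowest, median and highest values, with 5 high light samples below all normal light samples. AT4G34310 read 0.714, 1.27 and 1.49 in normal light and 0.436, 0.645 and 0.784 in high light, where of the normal light samples number 5 alone reached the high light range. AT1G44830 read 0.737, 1.18 and 1.47 in normal light and 0.544, 0.781 and 1.0 in high light, and its normal light sample 1 was lower than 3 high light samples. AT1G01500 read 0.4102 to 0.6703 in normal light, against 0.251 to 0.442 in high light, AT5G56850 read 0.486 to 0.843 in normal light, against 0.432 to 0.638 in high light, and AT1G01730 read 0.786 to 1.34 in normal light, against 0.547 to 1.07 in high light, with ratios of 0.662, 0.722 and 0.753. In these 3 the overlap came from at most 3 high light samples.

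AT4G25290 was the member of high intensity with the widest spread. It read 0.668, 0.7701, 0.1104, 0.3702, 1.004 and 1.23 in normal light samples 1 to 6 and 0.516, 0.585, 0, 0, 0.624 and 0.474 in high light samples 1 to 6. The ratio of 0.5295 includes the 2 high light samples at 0, and samples 3 and 4 were also the lowest in normal light. Of the 18 members with a normal light mean of 0.5 or more, it was the one listed at 0 in any high light sample.

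The members between 0.2 and 0.5 in normal light numbered 9. AT5G48440 read 0.208, 0.467 and 0.591 in normal light and 0.201, 0.266 and 0.418 in high light as lowest, median and highest values, a ratio of 0.649, and its normal light sample 5 (0.208) stood near the lowest high light sample. AT1G24240 read 0.186 to 0.317 in normal light, against 0.119 to 0.259 in high light, AT1G21500 read 0.212 to 0.557 in normal light, against 0.167 to 0.388 in high light, and AT5G52530 read 0.201 to 0.287 in normal light, against 0.117 to 0.233 in high light. Their ratios were 0.7198, 0.727 and 0.7702, and in each of these 3 genes 3 high light samples lay below the lowest normal light sample.

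Below 0.2 in normal light stood 13 members, and none of them had groups without overlap. Of these, 10 were listed at 0 in at least 1 high light sample. A 0 in normal light was barred by the rule and a 0 in high light was not, so that such genes could enter from 1 side only. Over all members, 12 of 40 (30%) had a 0 in high light, against 5.17% of the single-gene probes above 0 in all normal light samples. A 0 in high light also lowers the high light mean and with it the ratio that chose the members. The rule thus favoured such genes, and nothing is read from these shares. AT3G15490 was the extreme, with the lowest ratio of all (0.103), and it read 0.0317, 0.00177, 0.0219, 0.0769, 0.0121 and 0.0106 in normal light and 0 in all high light samples except number 4, at 0.01601. Since its normal light mean of 0.0258 lay far below the median of any column, its ratio compares values near the bottom of the scale.

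AT2G45990 was at 0 in high light samples 3, 4 and 6, but sample 1 of that group, at 0.175, was higher than 5 of the 6 normal light samples. AT5G62840 was at 0 in high light samples 1 and 2, and its other values, 0.0567 to 0.116, lay within the normal light range of 0.0147 to 0.152. AT5G53620 read 0.0713 to 0.136 in normal light, against 0 to 0.129 in high light, a ratio of 0.465 with 4 high light samples below all normal light samples. AT5G47030 read 0.08804 to 0.1798 in normal light, against 0 to 0.141 in high light. AT5G27860, AT3G01360, AT3G04560 and AT5G58410 each had 1 high light sample at 0 and ratios of 0.642, 0.729, 0.7304 and 0.739. For AT3G04560 the median was higher in high light (0.135) than in normal light (0.115), against the order of its means. AT1G62780, above 0 throughout, read 0.0642, 0.1803 and 0.248 in normal light and 0.026, 0.103 and 0.198 in high light, with 1 high light sample, number 5, below all normal light samples.

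The members just inside the ratio of 0.8 were AT1G74070 (0.787), AT2G22890 (0.789) and AT5G19210 (0.795), and the genes just outside it were AT3G12930 (0.8001), AT2G47360 (0.806) and CSLA01 (0.815). AT2G22890 read 0.3602, 0.774 and 0.838 in normal light and 0.248, 0.4998 and 0.821 in high light as lowest, median and highest values. AT3G12930 read 0.396, 0.458 and 0.541 in normal light and 0.337, 0.371 and 0.436 in high light, and 5 of its high light samples lay below all normal light samples, more than for any of the 3 genes just inside. CSLA01 read 0.631, 0.815 and 0.942 in normal light and 0.576, 0.653 and 0.7601 in high light, and AT2G47360 read 1.02, 1.39 and 1.77 in normal light and 1.05, 1.09 and 1.27 in high light. In AT1G74070 no high light sample lay below the lowest normal light sample, and its log2 difference of -0.14 turned to 0.065 without normal light sample 2.

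The rank of a gene among all probes of an array does not depend on a scaling of the columns. The members were not dim in normal light, where their median percentile was 77.4 (17.4 to 93.8), against 58.5 for the 415 genes. In high light their median percentile was 34.4 (2.58 to 85.8), against 54.7 for the 415. Every one of the 40 stood at a lower percentile in high light, with differences, high light minus normal light, from -8.04 percentile points for AT2G37510 to -57.9 for AT4G05030. The rule took genes that were lower as deposited while the median probe rose, so a drop in rank follows from it and supports nothing. It also favoured genes bright in normal light. Genes outside the members dropped in rank as well. The name of less abundant genes thus holds for the upper limit of 2 on the mean, which 662 of the 692 named genes met, and not for their place on the normal light arrays, where 32 of 40 had a mean above every column median. In high light 16 had a mean above every column median.

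**Figure D3:**
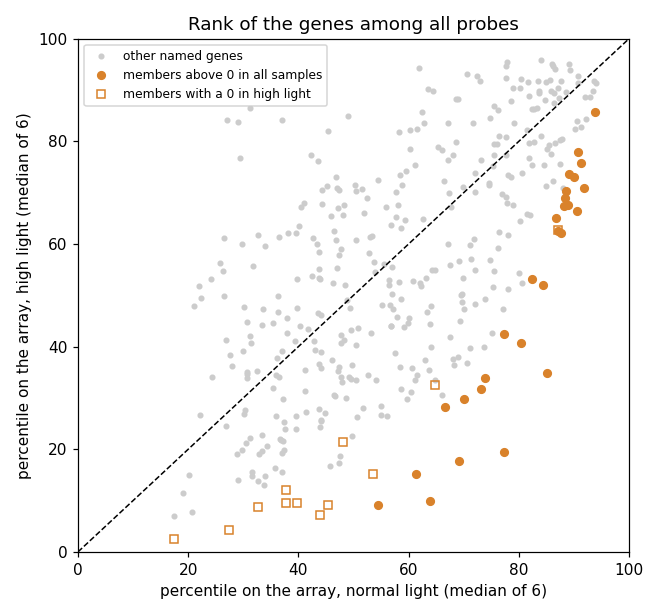
Percentile of each gene among the 3439 probes of an array, median of 6 samples, in normal light (horizontal axis) and high light (vertical axis), for the members and for the other named genes of the 415; the dashed line marks equal rank. All 40 members lie below the line, with a median of 77.4 in normal light and 34.4 in high light. Other genes of the 415 lie below it as well, so a lower rank is not particular to the members.

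On the deposited scale the median difference of mean log2 values over the 40 members was -0.80, high light minus normal light, and over the 28 members above 0 in all samples it was -0.59 (-1.97 to -0.14). Over all probes the same median was 1.48. After quantile normalisation, which gives all arrays the same distribution, the median was -1.96 over the 40 members and -1.71 over the 28 (-3.85 to -1.06), with all probes at 0.16. With columns scaled to a common median the 28 members had a median of -2.08, and with cyclic loess, which evens out pairs of arrays along the intensity range, -1.68. All 40 members lay below 0 on each of these 4 scales, and for 37 of them each of the 3 scalings gave a more negative value than the deposited scale. The rule chose the direction as deposited, and the 3 scalings take out the rise of the arrays, so nothing is read from this. A change of -3.85 for AILP1, -3.61 for AT1G76450 and -1.90 for CBL after quantile normalisation compares with -1.92, -1.81 and -0.65 as deposited.

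The fit over all probes (limma, Benjamini-Hochberg adjusted p under 0.05) called 30 of 40 members lower after quantile normalisation, where 22.0% of all probes were called lower. As deposited it called 22 of 40 lower, against 5.64% of all probes. Since the members were taken from the same contrast, nothing is read from these counts. The 22 are the members called lower on all 4 scales, against 5.29% of all probes, and the 9 members without overlap are among them. AT3G15490 and AT2G45990 are among the 22 as well, with 5 and 3 high light samples at 0. Their log2 differences depend on the low value put in place of each 0. Of the 18 members not called lower as deposited, 10 had a 0 in high light, AT4G25290, AT5G19210, PIFI and AT5G53620 among them.

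**Figure D4:**
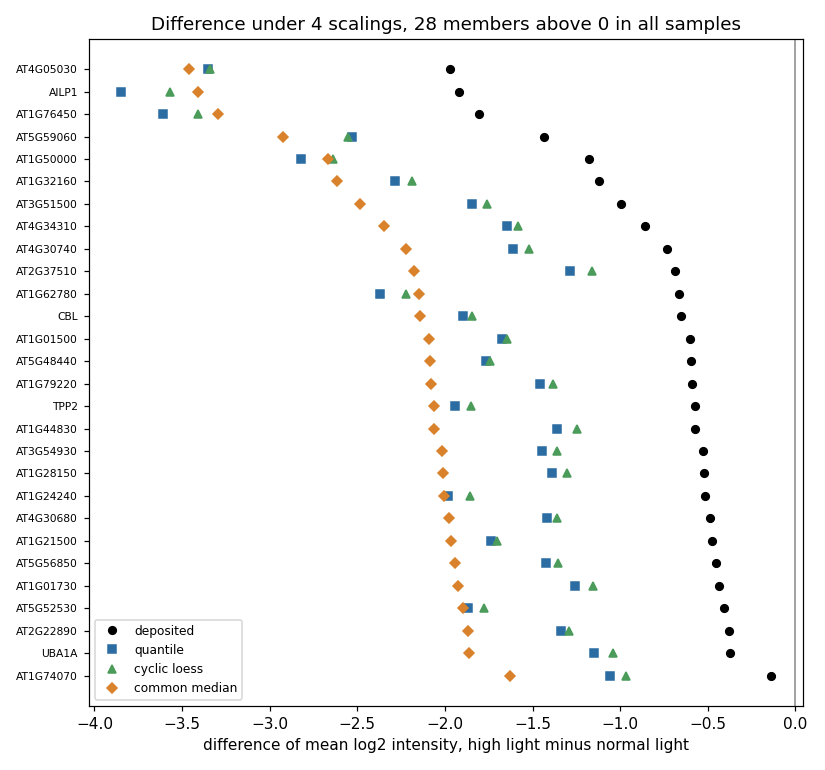
Difference of mean log2 intensity, high light minus normal light, for the 28 members above 0 in all 12 samples, as deposited and after 3 scalings, 1 symbol per scaling. All points lie below 0, the deposited values nearest to it (median -0.59) and those scaled to a common median at a median of -2.08. The rule and the rise of the arrays lead to this, so it supports nothing.

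The spread within a group is not independent of the rule, which took genes brighter in normal light and dimmer in high light than the others and admitted a 0 in high light alone. In normal light the median over members of the group mean was 0.402, against 0.158 for the other 375 of the 415 genes, and in high light 0.2402, against 0.402. The coefficient of variation had a median of 25.9% in normal light and 33.9% in high light over the members, against 39.95% and 18.7% over the 375, and nothing particular to the members is read from it. Among members it followed intensity. For the 18 brightest it was 20.8% (normal light) and 18.7% (high light), for the 9 of middle intensity 27.9% and 30.4%, and for the 13 dimmest, where 10 have a 0 in high light, 44.4% and 83.3%, as medians.

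In 16 members, a pair of samples with neighbouring numbers (1 and 2, 3 and 4, or 5 and 6) lay wholly above or wholly below the other 4 normal light samples, and in 22 this held in high light. The shares, 40% and 55%, compare with 57.3% and 62.1% of the other 375 genes. In normal light samples 5 and 6 were the low ones most often, in 7 members, while over the other genes samples 5 and 6 were more often high (74 genes) than low (39 genes). In 9 members the same pair lay apart the same way in both groups (22.5%, against 17.6% of the others).

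AT4G34310 and AT1G74070 had samples 5 and 6 low in both groups. AT4G34310 stood at 0.714 and 0.927 in these normal light samples against 1.26 to 1.49 in the others, and AT1G74070 at 0.336 and 0.272 against 0.997 to 1.48. In AT1G74070 these normal light values were lower than every high light value of the gene, and samples 1 to 4 were higher than every high light value. AT5G19210 read 0.133, 0.169, 0.315, 0.378, 0.152 and 0.262 in normal light samples 1 to 6 and 0, 0, 0.329, 0.383, 0.20 and 0.209 in high light samples 1 to 6. Samples 3 and 4 were the high ones in both groups and differed little between them, and its ratio of 0.795 rests on high light samples 1 and 2 at 0.

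AT1G21500 and AT5G48440 had samples 1 and 2 high in both groups, AT1G24240 and AT1G01730 had them low, AT2G37510 had samples 5 and 6 high, and AT4G25290 had samples 3 and 4 low. AT1G21500 read 0.557, 0.397, 0.298, 0.361, 0.212 and 0.282 in normal light and 0.388, 0.375, 0.177, 0.167, 0.211 and 0.213 in high light. Its high light samples 1 and 2 each lay above 4 of the normal light samples. What the neighbouring numbers stand for is not in the labels. With these pairs averaged, limma called 27 members lower (12.5% of all probes), with the pairs as a random block 29 (18.9%) and with the pair of numbers as a replicate block 32 (23.6%), against 30 without. The replicate block was added after the data were seen.

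**Figure D5:**
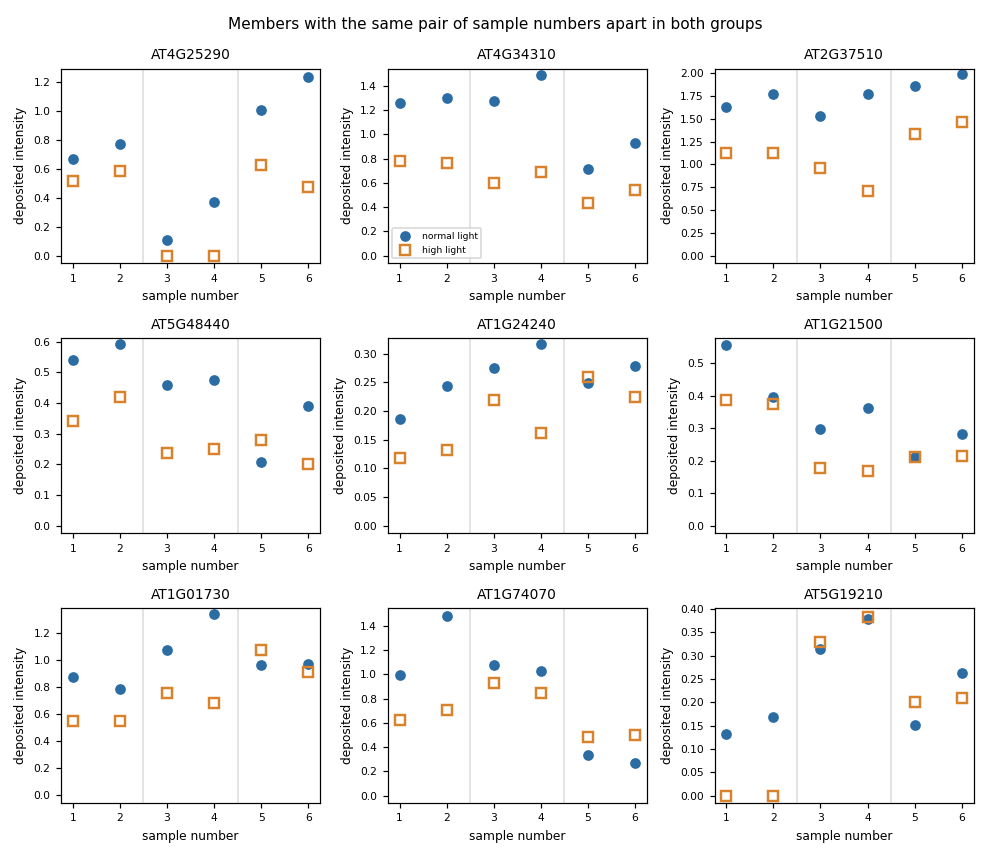
Deposited intensity (arbitrary unit) by sample number for the 9 members in which the same pair of neighbouring numbers lay apart the same way in normal light (filled circles) and high light (open squares); grey lines divide the pairs. In AT4G25290 samples 3 and 4 are low in both groups, and in AT5G19210 samples 3 and 4 coincide while samples 1 and 2 are at 0 in high light.

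Of the 16 gene lists used here, 7 had a measured gene, 19 probes in all, and 1 member stood on any of them, AT1G76450. It was the 1 measured gene of 11 on the list of PsbP and PsbP-like proteins. PSBY of the photosystem list and AT1G64510, AT3G13120 and AT1G29070 of the plastid ribosomal list met the rule but were set aside by name. The number of members on the lists thus depends on the names left out, and nothing is read from it. The other lists show which named genes had similar ratios but were no members. Over all 692 named genes, 80 (11.6%) had a ratio under 0.8. A ratio under 0.8 was found in 3 of 4 measured subunits of the photosystems and their antenna, in 1 of 2 measured genes of the Calvin cycle and photorespiration and in 3 of 6 plastid ribosomal proteins. It was found in 0 of 3 genes of tetrapyrrole synthesis, 0 of 2 of plastid fatty acid synthesis and 0 of 1 of peroxide defence. These differences between lists depend on the scale, and nothing is read from them. After quantile normalisation, limma called 3 of 4 photosystem, 1 of 2 Calvin cycle and 4 of 6 ribosomal genes lower. It also called 2 of 3 tetrapyrrole, 1 of 2 fatty acid and 0 of 1 peroxide defence genes lower, against 22.0% of all probes. None of the genes marking mesophyll, root, flower and pollen, or seed, and none of the genes marking high light and heat had a single-gene probe, so neither tissue nor a light response could be checked with them.

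The members lay on all 5 chromosomes, 12 on chromosome 1, 4 on 2, 7 on 3, 6 on 4 and 11 on 5, by the RefSeq table of assembly TAIR10.1. Of all their pairs, 2 had 19 or fewer protein-coding genes between them. The number of such pairs among other genes is not given here, so nothing is read from these 2. AT4G30680 and AT4G30740, both without overlap between the groups, had 5 genes between them, and AILP1 (AT5G19140) and AT5G19210 had 9. In normal light the mean of samples 5 and 6 was the highest of the pair means in both AT4G30740 (1.25) and AT4G30680 (0.834). In high light the mean of samples 3 and 4 was the lowest in both (0.574 and 0.4896). The high light pair means of AT4G30740 lay close together, however (0.574 to 0.591), and samples 3 and 4 were lowest in 37.5% of members. The share with samples 5 and 6 highest in normal light is not given here, so nothing is read from either likeness. In normal light AILP1 was high in samples 1 and 2, where AT5G19210 was high in 3 and 4.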

How the data were processed

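Total RNA of 12 samples, 6 per group, was measured on expression arrays, and groups and sample numbers were taken from the labels' titles. The deposited values are intensities, linear and in an arbitrary unit. The scanner, background correction and scaling behind them are not given in the sources used here. The members and gene lists were chosen with earlier results of these data known. Of the 692 single-gene probes of the platform annotation, 690 matched the RefSeq table of assembly TAIR10.1. A further 870 probes had several genes and 1877 were not listed, and none of these was named. No coordinates are given, because no build is named for the array, and no promoter or protein sequences were used here. The number of arrays limits the precision.

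Deposited values were used for levels and ratios. Because column medians differed by more than the factor of 1.1 set for keeping the deposited values, the fit over all probes used quantile normalisation, then 9.01e-06, the lowest positive value, in place of each 0, then log2 values in limma 3.58.1 (R 4.3.3; lmFit and eBayes, 2-sided, Benjamini-Hochberg over 3439 probes, threshold 0.05). Named in full were the 12 members above 0 in all samples with the lowest ratios, the 8 brightest without overlap, members on gene lists, and 3 genes on each side of the ratio of 0.8. Members outside this rule were described after their values were seen. The division at 0.2 and 0.5 and the count of neighbouring pairs apart were also chosen after the values were seen. Alternatives were other scalings, floors, filters, blocks and left-out samples.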

Additional observations from a re-analysis of the deposited data

How the results depend on the processing

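The number of members, 40, became 26 with a ratio under 0.7, 63 with no condition on zeros, 215 with columns scaled to a common median and 197 after quantile normalisation, since the shift of the arrays then counts against every gene. Leaving out 1 sample gave 36 to 41 members, of which 35 to 38 were among the 40. The count of members called lower by limma was 30, where 757 of all 3439 probes were called lower. Over the alternatives the count of members ran from 22 as deposited (194 of all probes) to 39. The 39 came with an offset of 0.00558 (914 of all probes) and with values under 0.05 raised to 0.05 (896 of all probes). With 1 sample left out, 29 to 32 members were called lower. Members without overlap, 9 as deposited, numbered 30 with a common median, 31 with cyclic loess and 34 after quantile normalisation. They numbered 23 with neighbouring samples (1 and 2, 3 and 4, 5 and 6) averaged, where 3 values per group separate more easily. With 1 sample left out they numbered 9 to 12. The share over all probes was counted as deposited alone (3.98%), so nothing is read from the counts under the other settings. The median log2 difference of the members, -0.80, was -2.29 with a common median, -1.85 with cyclic loess, -1.96 after quantile normalisation and -0.73 with an offset of 0.00558, and -0.91 to -0.70 with 1 sample left out. Of 21 single genes, the difference of AT1G74070 alone changed sign, to 0.065 without normal light sample 2 (-0.42 to 0.065 over the left-out samples), and the cause was not tested. Over all probes, 757 lower and 543 higher calls became 194 and 1698 as deposited and 429 and 330 with the pairs averaged. With 1 sample left out they were 706 to 761 and 479 to 574.

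The same sample numbers occur in both groups, and the labels do not say whether they pair the samples. The deviations from group means of samples with the same number had correlations of -0.0063 to 0.065 between the groups. With values under 0.05 raised to 0.05 these correlations were 0.018 to 0.173. Of the 12 samples, 4 were most like their own number, out of 6 candidates each in the other group. Some such matches can occur without pairing, so these values do not settle whether the numbers pair the samples. With the number as a replicate block, limma called 30 members lower (705 lower and 490 higher over all probes). With the pair of neighbouring numbers as a block, an alternative added after seeing the data, it called 32 (810 lower and 600 higher over all probes). Subtracting the 1st percentile changed nothing, because it was 0 in every column. The planned counts of promoter motifs and of protein composition were not run, because no sequences were used here.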
